A study of Homo sapiens with 3 samples.

Results

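The genes described here encode heat shock proteins and the cochaperones that work with them in the cytosol. They were taken from a list of 47 gene symbols, and a gene was measured when at least 1 probe set other than a control was annotated to its symbol alone. Of the 47 genes, 43 were measured, of 19775 genes measured in all. HSPA8 and TCP1 had only probe sets that also carried another gene symbol, and AHSA1 and HSF2 had none under their own symbol in the annotation used here. The 43 genes had 101 probe sets, of which 47 have identifiers ending in _x_at or _s_at, the endings Affymetrix gives to sets that can detect more than 1 transcript. A gene's value is the mean over its probe sets.

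The cells were T47D, a human breast cancer line that expresses estrogen receptor α and the progesterone receptor. After 4 h in medium with 10% charcoal-stripped serum, which is depleted of steroid hormones, they received ERα17p at 1 µM, estradiol at 1 µM or ethanol at 0.1% as the vehicle, and RNA was taken 3 h later. ERα17p is a synthetic peptide with the sequence of a stretch of estrogen receptor α, and estradiol is the receptor's main natural ligand. Each group had 1 Affymetrix HG-U133 Plus 2 array, so no difference below has an error between cultures and no significance test could be made. An ethanol share was found in the labels for the vehicle cells alone. The SD given with a difference is over the n probe sets of the gene and covers the disagreement of those sets within these arrays.

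The deposited values lie around 0 because each probe set was set relative to a baseline that is not stated. They hold no absolute level, so levels of different genes cannot be compared, and the markers of the T47D line could not be checked as levels. Values are read here as log2, the scale that RMA gives, and a fold size would be wrong under any other base. A gene was counted as higher or lower at a difference of at least 1.5-fold, which is 0.585 on this scale.

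Molecular chaperones bind unfolded or unstable proteins and use cycles of ATP binding to help them fold. HSP70 proteins receive their clients from J-domain proteins and release them with the help of nucleotide exchange factors such as the HSP110 and BAG proteins. HSP90 takes clients that are nearly folded, among them kinases and steroid receptors. The estrogen receptor without hormone is held in a complex with HSP90, the cochaperone p23 and immunophilins of the FKBP family. Heat shock factor 1, HSF1, induces many of these genes when unfolded proteins accumulate, by binding repeats of the letters GAA and TTC in their promoters.

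The element bound by heat shock factors is shown here as a feature of the promoters of some heat shock genes. Sequences are from RefSeq promoter windows on GRCh38.p14, which run from 250 bases before a gene's start to 50 bases after it. Windows were found for 41 of the 47 genes, but not for FKBP4, STUB1, ST13, HSPA14, BAG4 and HSF1. The searched motif was GAA, any 2 bases, TTC, any 2 bases and GAA again, on either strand, so that on the other strand it starts and ends with TTC, and overlapping matches were joined. It was present in 8 of the 41 genes, or 19.5%, and in 0.608% of all 27305 genes with a window. A match is a description of the letters and does not show binding. A window without a match does not mark a gene as free of HSF1, and the windows of DNAJB1, HSPH1 and BAG3 held none. The matches are in capitals and are given 5′ to 3′ on the strand of the gene.
HSPA6, chr1:161524458-161524486, plus strand: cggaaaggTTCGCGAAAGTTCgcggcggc
HSPA8, nearest match, chr11:123062171-123062199, minus strand: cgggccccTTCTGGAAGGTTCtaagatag
HSP90AA1, chr14:102087112-102087140, minus strand: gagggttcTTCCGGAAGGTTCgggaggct
HSP90AB1, nearest match, chr6:44247823-44247851, plus strand: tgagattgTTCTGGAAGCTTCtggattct
HSPD1, chr2:197500062-197500090, minus strand: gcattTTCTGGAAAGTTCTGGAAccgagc
DNAJA1, chr9:33025268-33025296, plus strand: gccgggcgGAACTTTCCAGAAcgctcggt
DNAJB6, chr7:157336865-157336893, plus strand: agagccgaGAACCTTCGCGAAggtggggc

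The eighth gene was CHORDC1, whose match of 23 joined bases began 60 bases before the start. The 250 bases before its start are shown with the same stretch for HSPA4L, the gene with the largest difference in the set, whose 3 windows held no match. The third sequence is the 104 bases between the starts of HSPD1 and HSPE1, which encode the mitochondrial chaperonin and its lid and are read in opposite directions from this stretch. It held no match. The HSPD1 match above lies inside the annotated HSPD1 gene, and those of HSP90AA1, HSP90AB1, HSPA8 and DNAJA1 lie inside theirs.
CHORDC1, chr11:90223050-90223299, minus strand: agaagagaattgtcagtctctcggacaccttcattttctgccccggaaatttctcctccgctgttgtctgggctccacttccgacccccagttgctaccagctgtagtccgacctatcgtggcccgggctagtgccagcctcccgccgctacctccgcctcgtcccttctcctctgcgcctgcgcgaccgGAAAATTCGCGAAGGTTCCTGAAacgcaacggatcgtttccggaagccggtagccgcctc
HSPA4L, chr4:127781546-127781795, plus strand: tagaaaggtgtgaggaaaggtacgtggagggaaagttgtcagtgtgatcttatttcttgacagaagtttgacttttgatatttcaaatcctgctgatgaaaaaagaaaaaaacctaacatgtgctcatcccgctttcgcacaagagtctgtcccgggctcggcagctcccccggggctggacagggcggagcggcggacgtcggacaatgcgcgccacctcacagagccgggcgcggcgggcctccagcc
HSPD1 to HSPE1, chr2:197500275-197500378, plus strand: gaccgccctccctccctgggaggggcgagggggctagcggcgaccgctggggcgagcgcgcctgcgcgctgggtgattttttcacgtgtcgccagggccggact

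The palindrome GGTCA, any 3 bases, TGACC, the consensus letters of the estrogen response element, was searched in the same windows. It was found in 0 of the 41 genes and in 0.0732% of all genes with a window, which says only that these letters were not in these windows. With so low a share over all genes, 0 among 41 carries little information. FKBP4, which had no window, was not searched.

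On the vehicle array values were spread more widely than on either treated array, which touches every difference from vehicle. Over the 43 genes the values had an SD of 0.147 on the ERα17p array, 0.0873 on the estradiol array and 0.435 on the vehicle array. Over all 19775 genes the SDs were 0.139, 0.130 and 0.371 in the same order of arrays. The 3′ less the 5′ control probe set of ACTB was −0.17 on the ERα17p array, −0.29 on the estradiol array and 0.52 on the vehicle array. The GAPDH sets gave 0.01, −0.10 and 0.39, so both of these controls were highest on the vehicle array. The part of these shifts in the chaperone differences was not tested. The 8 luminal marker genes had a median difference of 0.01 between ERα17p and vehicle and of 0.02 between estradiol and vehicle, and 6 markers of other cell types had medians of 0.04 and −0.03. PGR, the progesterone receptor gene and an estrogen target, was the 1 luminal marker past 1.5-fold, at 0.89 with ERα17p and 1.44 with estradiol. Of the other markers, the mesenchymal genes VIM at 0.42 and 0.53 and COL1A1 at −0.44 and −0.63 differed most, and their part in the chaperone differences was not tested.

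Against vehicle, the chaperone genes lay on both sides in either treated array. In bulk RNA fewer cells of a type and less RNA per cell cannot be told apart. HSPA4L, HSPH1, DNAJA2 and CCT2 were higher in both treated arrays, CDC37, DNAJB2 and STUB1 were lower in both, and 31 of the 43 genes stayed within 1.5-fold in both. At least 1.5-fold higher with ERα17p were 7 genes, or 16.3%, against 6.88% of all genes, and at least 1.5-fold lower were 5, or 11.6%, against 8.76%. With estradiol 4 genes were higher, or 9.3%, against 6.48% of all genes, and 3 were lower, or 6.98%, against 8.42%. The median difference was 0.16 for ERα17p and 0.12 for estradiol, while over all genes it was 0.00 for both. With the median of each gene's sets in place of their mean, the median over the 43 genes was 0.09 for ERα17p and 0.03 for estradiol, and with sets as units it was 0.11 and −0.0004. The mean over the genes was 0.07 and 0.06. The genes past the threshold with estradiol were all past it in the same direction with ERα17p, but both comparisons use the same vehicle array. In 39 of the 43 genes both treated arrays lay on the same side of the vehicle array, a share of 90.7% against 81.2% of all genes.

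**Figure D1:**
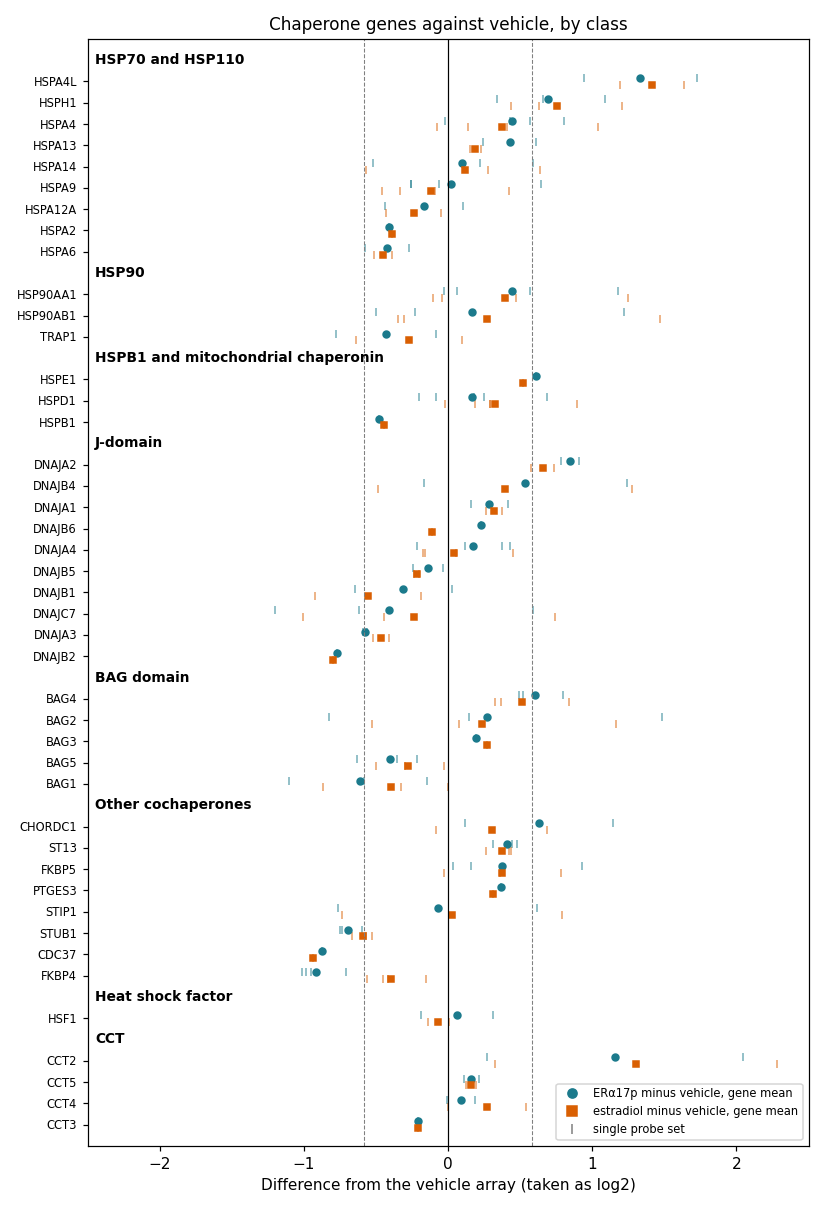
Difference of each measured chaperone gene from the vehicle array (horizontal axis, taken as log2), by class. Circles are ERα17p minus vehicle, squares are estradiol minus vehicle, ticks are single probe sets and dashed lines mark 1.5-fold. HSPA4L at 1.33 and 1.41 and CCT2 at 1.16 and 1.30 lie farthest to the right, FKBP4 at −0.92 is the circle farthest to the left and CDC37 at −0.94 the square farthest to the left, while in several genes the ticks spread to both sides of 0.

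Among the HSP70 and HSP110 proteins, 2 of 9 measured genes were at least 1.5-fold higher in each treated array, against 6.88% of all genes with ERα17p and 6.48% with estradiol, and 0 were lower. HSPA4L, an HSP110-type exchange factor for HSP70 (chromosome 4, 127781796 to 127840733), had mean values of 0.14 on the ERα17p array, 0.22 on the estradiol array and −1.19 on the vehicle array. Its 2 probe sets read 0.10 and 0.19 with ERα17p, 0.35 and 0.10 with estradiol, and −0.84 and −1.54 with vehicle. Each set was therefore above its own vehicle value with both agents. The difference was 1.33 ± 0.56 (SD, n = 2) with ERα17p, or 2.52-fold, and 1.41 ± 0.32 with estradiol, or 2.66-fold. It was the 126th highest of 19775 genes with ERα17p and the 80th highest with estradiol.

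HSPH1, the main HSP110 protein of the cytosol (chromosome 13, 31134973 to 31162388), had mean values of 0.13 with ERα17p, 0.19 with estradiol and −0.57 with vehicle. The difference was 0.70 ± 0.37 (SD, n = 3) with ERα17p and 0.76 ± 0.40 with estradiol, and all 3 probe sets were above vehicle in each. Only 1 HSPH1 set does not end in _x_at or _s_at, and it gave 0.34 for ERα17p and 0.63 for estradiol, so without the other sets the gene was past 1.5-fold with estradiol only. The third HSP110-type gene, HSPA4, differed by 0.45 ± 0.35 (SD, n = 4) and 0.38 ± 0.48, below the threshold, and its sets ranged up to 0.81 with ERα17p and 1.04 with estradiol.

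The strictly heat-inducible HSP70 gene HSPA6, whose promoter holds the element shown above, was on the lower side in both treated arrays. Its mean values were −0.11 with ERα17p, −0.14 with estradiol and 0.31 with vehicle, and its differences were −0.42 ± 0.22 (SD, n = 2) and −0.45 ± 0.09. HSPA2, an HSP70 best known from male germ cells, stood at −0.41 and −0.39 with 1 probe set. HSPA9, the HSP70 of the mitochondrial matrix, differed by 0.02 ± 0.43 (SD, n = 4) with ERα17p and −0.12 ± 0.39 with estradiol. The remaining genes of the class, HSPA12A, HSPA13 and HSPA14, lay between −0.24 and 0.43. The class median was 0.09 with ERα17p and 0.12 with estradiol.

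No HSP90 gene passed 1.5-fold, and the probe sets of the cytosolic HSP90 genes disagreed. HSP90AA1, the inducible cytosolic HSP90, had mean values of 0.06 with ERα17p, 0.01 with estradiol and −0.39 with vehicle. Its differences were 0.45 ± 0.56 (SD, n = 4) with ERα17p and 0.39 ± 0.63 with estradiol. They came mostly from a probe set that read −1.10 on the vehicle array and from another that read −0.48, while the other two sets read −0.00 and 0.03 there.

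HSP90AB1, the constitutive cytosolic HSP90, differed by 0.16 ± 0.92 (SD, n = 3) with ERα17p and 0.27 ± 1.04 with estradiol. The sets of this gene had opposite signs: 1 gave 1.22 with ERα17p and 1.47 with estradiol, and the other two gave −0.50 and −0.23 with ERα17p, and −0.35 and −0.31 with estradiol. A direction for HSP90AB1 therefore cannot be read from these arrays. TRAP1, the mitochondrial HSP90, stood at −0.43 ± 0.49 (SD, n = 2) and −0.27 ± 0.52.

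Of HSPB1 and the mitochondrial chaperonin, HSPE1 was past the threshold with ERα17p. HSPE1, the lid of the chaperonin, had values of 0.15 with ERα17p, 0.06 with estradiol and −0.45 with vehicle on its 1 probe set, giving differences of 0.61 and 0.52. HSPD1, the chaperonin itself, lies on the other strand with 104 bases between the starts. It differed by 0.16 ± 0.34 (SD, n = 5) with ERα17p and 0.33 ± 0.34 with estradiol. HSPB1, a small heat shock protein known as an estrogen-responsive gene in breast cancer cells, was on the lower side at −0.48 with ERα17p and −0.44 with estradiol. Its 1 probe set read −0.18, −0.14 and 0.30 on the ERα17p, estradiol and vehicle arrays.

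J-domain genes, whose proteins bring clients to HSP70, had 1 of 10 members at least 1.5-fold higher and 1 lower in each treated array. Of all genes 6.88% were higher and 8.76% lower with ERα17p, and 6.48% and 8.42% with estradiol. DNAJA2 (chromosome 16, 46955362 to 46973674), a constitutive partner of cytosolic HSP70, had mean values of 0.22 with ERα17p, 0.03 with estradiol and −0.62 with vehicle. Its differences were 0.84 ± 0.09 (SD, n = 2) with ERα17p, or 1.80-fold, and 0.66 ± 0.11 with estradiol, or 1.58-fold. Both probe sets agreed closely, which made DNAJA2 and HSPA4L the only genes of the set in which every one of several probe sets was at least 1.5-fold higher with ERα17p. With estradiol this held for HSPA4L alone.

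DNAJB2, a J-domain protein that also binds ubiquitin, had values of 0.01 with ERα17p, −0.01 with estradiol and 0.79 with vehicle on 1 probe set, and stood at −0.77 and −0.80. DNAJB1, the main heat-inducible J-domain protein, was at −0.31 ± 0.48 (SD, n = 2) with ERα17p and −0.56 ± 0.52 with estradiol, and did not reach 1.5-fold with either agent. Of its 2 sets, 1 read 0.75 on the vehicle array and the other 0.01. DNAJA3, which works in mitochondria, just missed 1.5-fold with ERα17p, at −0.57 ± 0.02 (SD, n = 2), and stood at −0.47 ± 0.07 with estradiol.

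DNAJB4 showed how far probe sets of 1 gene could part. Its 2 sets gave 1.24 and −0.17 with ERα17p, and 1.27 and −0.49 with estradiol, for means of 0.53 and 0.39. DNAJC7, which can bind HSP70 and HSP90, had sets from −1.20 to 0.59 with ERα17p, and with estradiol they also lay on both sides of 0, reaching 0.74. DNAJA1, another main partner of cytosolic HSP70, stood at 0.29 ± 0.18 (SD, n = 2) and 0.32 ± 0.08. DNAJA4, DNAJB5 and DNAJB6 lay between −0.22 and 0.23. The class median was 0.02 with ERα17p, or −0.17 over the 7 genes left without the sets ending in _x_at or _s_at, and −0.17 with estradiol.

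The BAG proteins are exchange factors of HSP70. With ERα17p 1 of 5 genes was at least 1.5-fold higher and 1 lower, against 6.88% and 8.76% of all genes. With estradiol there were 0 of either, against 6.48% and 8.42%. The class medians were 0.20 with ERα17p and 0.24 with estradiol. BAG4 was at 0.60 ± 0.17 (SD, n = 3) with ERα17p and 0.51 ± 0.29 with estradiol, with all 3 sets above vehicle. Without its set ending in _s_at BAG4 stood at 0.50 with ERα17p, which ends the call. BAG1, which also binds steroid receptors and the anti-apoptotic protein BCL2, had mean values of −0.26 with ERα17p, −0.05 with estradiol and 0.35 with vehicle. It stood at −0.61 ± 0.48 (SD, n = 3) with ERα17p and at −0.40 ± 0.44 with estradiol, and its sets ran from −1.10 to −0.15 with ERα17p and from −0.87 to −0.00 with estradiol.

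BAG3, the BAG protein that HSF1 induces under stress, differed by 0.20 and 0.27 on 1 probe set. BAG5 stood at −0.40 ± 0.21 (SD, n = 3) and −0.28 ± 0.24. BAG2 had a mean of 0.27 with ERα17p and 0.24 with estradiol, from sets that ran from −0.82 to 1.49 with ERα17p.

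**Figure D2:**
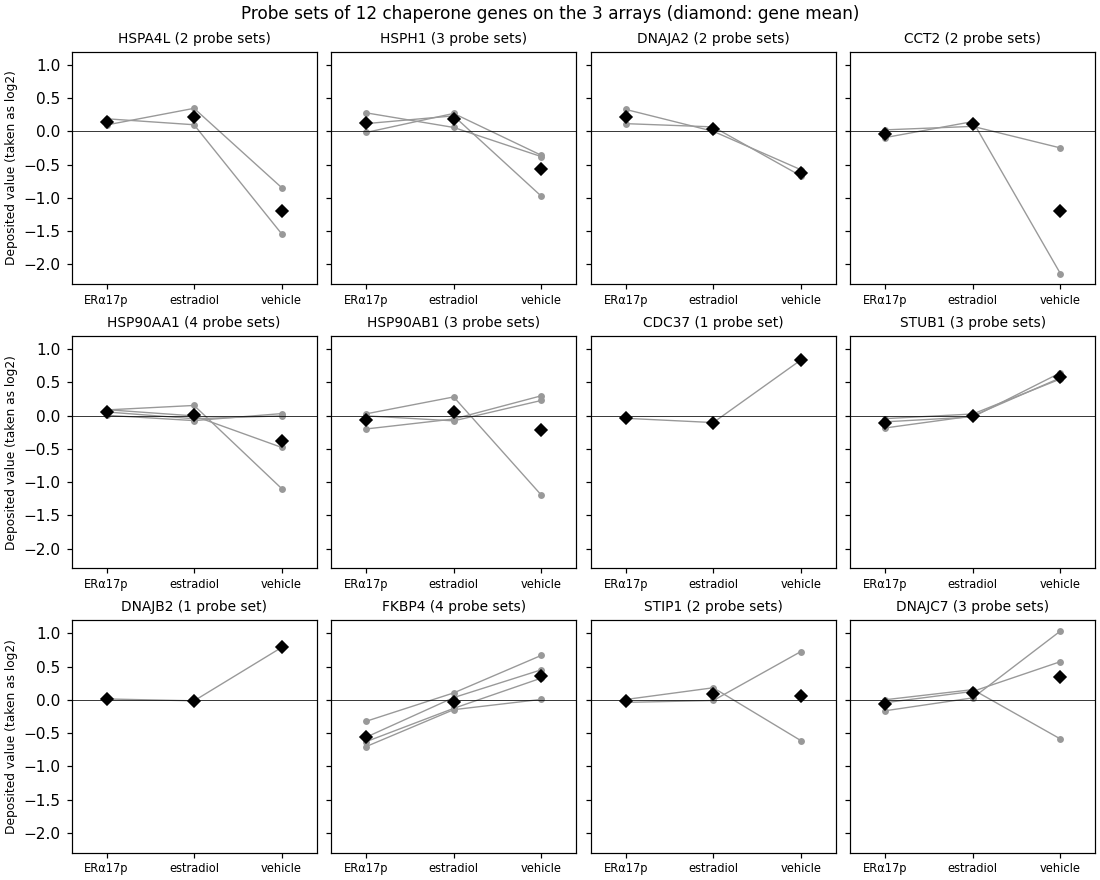
Deposited values (vertical axis, taken as log2 relative to an unstated baseline) of the probe sets of 12 chaperone genes on the ERα17p, estradiol and vehicle arrays. Lines join the values of 1 probe set and diamonds are gene means. The sets of DNAJA2 and STUB1 run close together and those of FKBP4 in parallel, whereas those of HSP90AB1, STIP1 and DNAJC7 part on the vehicle array and lie close together on both treated arrays.

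Of 8 measured cochaperones of HSP90 and HSP70, CDC37, STUB1 and FKBP4 were at least 1.5-fold lower with ERα17p, and CDC37 and STUB1 also with estradiol. CHORDC1 was higher with ERα17p and 0 were higher with estradiol, and the class medians were 0.15 and 0.17. Of all genes 8.76% were lower with ERα17p and 8.42% with estradiol, and 6.88% and 6.48% were higher. CDC37 (chromosome 19, 10391133 to 10403542), which delivers kinases to HSP90, had values of −0.04 with ERα17p, −0.10 with estradiol and 0.84 with vehicle. The difference was −0.88 with ERα17p and −0.94 with estradiol, from 1 probe set that ends in _s_at, so no second set of the gene could be compared. STUB1 (chromosome 16, 680410 to 682801) is the ubiquitin ligase CHIP, which marks chaperone clients and also the estrogen receptor for degradation. It had 3 sets that agreed, but all 3 end in _x_at or _s_at, so no set without these endings could be compared. Its mean values were −0.11, −0.00 and 0.59 on the ERα17p, estradiol and vehicle arrays, and its differences were −0.70 ± 0.09 (SD, n = 3) and −0.59 ± 0.07. With estradiol the gene was only just past the threshold, and the median of its sets, −0.57, and its centred difference, −0.58, were short of it.

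PTGES3, FKBP5 and ST13 lay above the vehicle array by less than 1.5-fold. PTGES3, the p23 protein that closes the mature complex, differed by 0.37 with ERα17p and 0.31 with estradiol on 1 probe set. FKBP5, an immunophilin that steroid hormones induce, differed by 0.37 ± 0.48 (SD, n = 3) and 0.37 ± 0.40, and 1 of its sets was near 0 in both. ST13, the HSP70-binding protein HIP, differed by 0.41 ± 0.09 (SD, n = 3) and 0.37 ± 0.10, and its 3 sets ran from 0.31 to 0.48 with ERα17p.

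STIP1, the HOP protein that joins HSP70 to HSP90, had a mean difference of −0.07 ± 0.98 (SD, n = 2) with ERα17p and 0.03 ± 1.08 with estradiol. This is a mean of opposite readings, 0.62 and −0.76 with ERα17p and 0.79 and −0.73 with estradiol. CHORDC1, a stress-induced HSP90 cochaperone, had mean values of 0.23 with ERα17p, −0.10 with estradiol and −0.40 with vehicle. It was at 0.63 ± 0.73 (SD, n = 2) with ERα17p and 0.30 ± 0.55 with estradiol. Its set that does not end in _x_at or _s_at gave 0.12 with ERα17p and −0.09 with estradiol, which ends the call for ERα17p and turns the sign for estradiol.

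HSF1 itself differed by 0.06 ± 0.35 (SD, n = 2) with ERα17p and −0.07 ± 0.11 with estradiol. The 7 measured genes with the heat shock element in a window had a median difference of 0.23 with ERα17p and 0.30 with estradiol. The median with ERα17p was the value of DNAJB6, from 1 set ending in _s_at. With estradiol it was the value of CHORDC1, which was −0.09 without its set ending in _s_at. Of these 7 genes, 1 was at least 1.5-fold higher with ERα17p, which was CHORDC1, and 0 with estradiol, and 0 were lower in either. The CHORDC1 call ended without its set ending in _s_at, as given above. Of the 89 measured genes of the genome with the element in a window, 7 were higher and 4 lower with ERα17p. With estradiol 4 of the 89 were higher and 7 lower. The shares over all genes were 6.88% higher and 8.76% lower with ERα17p, and 6.48% and 8.42% with estradiol. The 30 measured genes with a window but no such element had medians of 0.05 and 0.04. They include DNAJB1 and BAG3, described above as heat-inducible and as induced by HSF1, so they are not a group free of HSF1 targets. The medians over those 89 genes were 0.01 and −0.04. The groups of 7 and 30 genes were compared after their values were seen, and their difference has no test here.

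CCT subunits form the ring-shaped chaperonin of the cytosol, which folds actin and tubulin, and all subunits are needed for 1 ring. CCT2 (chromosome 12, 69585459 to 69601570) had mean values of −0.04 with ERα17p, 0.11 with estradiol and −1.19 with vehicle. Its differences were 1.16 with ERα17p and 1.30 with estradiol, because 1 set read −2.14 on the vehicle array and the other −0.25. The 2 sets thus differed from vehicle by 2.04 and 0.27 with ERα17p, and by 2.28 and 0.32 with estradiol. The other measured subunits lay within 0.3 of vehicle, with CCT3 at −0.21 and −0.21, CCT4 at 0.09 and 0.27, and CCT5 at 0.16 and 0.16. The size of the CCT2 difference rested on 1 probe set.

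The probe sets of 1 gene often disagreed in sign. Among the 34 genes of the set with more than 1 probe set, all sets had the same sign in 19 with ERα17p, or 55.9%, against 45.4% of all 10523 such genes, and in 18 with estradiol, or 52.9%, against 44.3%. Between ERα17p and estradiol it was 16, or 47.1%, against 37.3%. Every set was at least 1.5-fold higher in 2 genes with ERα17p, or 5.88%, against 2.22% of all such genes. With estradiol this was so in 1, or 2.94%, against 1.68%. Every set was at least 1.5-fold lower in 2 genes with ERα17p, FKBP4 and STUB1, or 5.88%, against 2.29%. With estradiol this was so in 0, against 2.19%. Between ERα17p and estradiol this held for 0 genes in either direction, against 0.0855% higher and 0.0855% lower. The median SD over the sets of a gene was 0.36 with both agents in the chaperone genes. Over all such genes it was 0.28 with ERα17p and 0.29 with estradiol, and between the ERα17p and estradiol arrays it was 0.13 in the chaperone genes and 0.16 over all such genes.

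**Figure D3:**
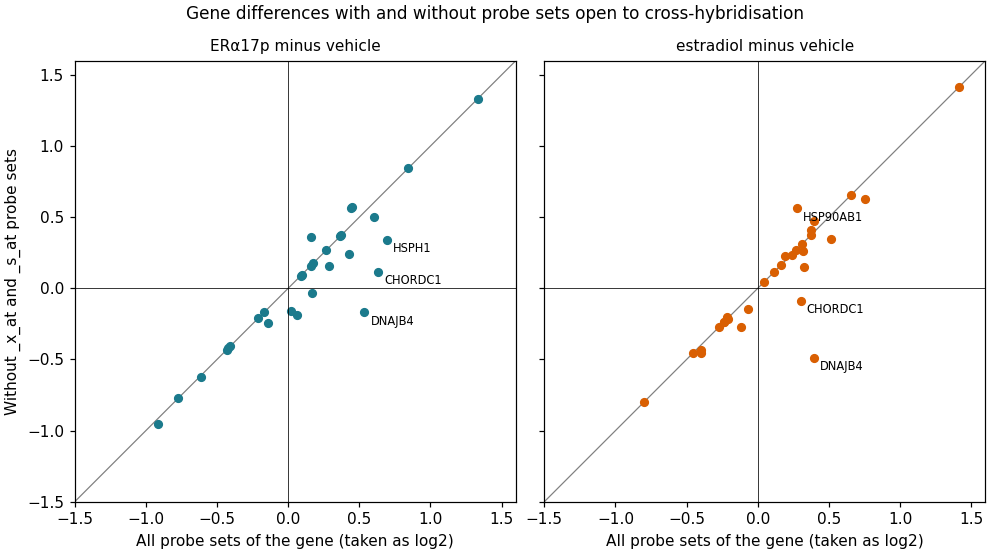
Gene difference from vehicle over all probe sets (horizontal axis) against the difference without the sets ending in _x_at or _s_at (vertical axis), both taken as log2, for the 30 chaperone genes that keep a set, with ERα17p on the left and estradiol on the right. The grey line is equality. Genes that have no set with these endings lie on it by construction. Of the genes that lose a set, DNAJB4 moves across 0 in both panels. HSPA9, HSPD1 and HSF1 cross 0 with ERα17p, and CHORDC1 does so with estradiol.

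Leaving out the sets ending in _x_at or _s_at removed 13 of the 43 genes, among them HSPB1, HSPE1, DNAJB1, BAG3, CDC37, STUB1, ST13 and CCT2. Over the 30 genes left, the median difference was 0.11 with ERα17p and 0.13 with estradiol. At least 1.5-fold higher were 2 of them with ERα17p, HSPA4L and DNAJA2, or 6.67%, against 6.45% of the 17098 genes that keep a set. With estradiol 3 were higher, HSPA4L, DNAJA2 and HSPH1, or 10.0%, against 5.99%. Lower were 3 with ERα17p, FKBP4, DNAJB2 and BAG1, or 10.0%, against 8.04%. With estradiol 1 was lower, DNAJB2, or 3.33%, against 7.88%. Between ERα17p and estradiol 0 of the 30 were higher, against 0.643%, and 0 lower, against 0.743%.

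Other thresholds changed the counts and the shares of all genes beside them. At 2-fold HSPA4L and CCT2 were higher with each agent. These are 2 of 43 genes, against 1.9% of all genes with ERα17p and 1.57% with estradiol. Lower were 0, against 1.87% and 1.63%. At a log2 difference of 0.32, 14 of 43 genes were higher with ERα17p, against 16.6% of all genes. With estradiol 12 of 43 were higher, against 16.4%. At that limit 12 of 43 were lower with ERα17p, against 19.2%, and 10 of 43 with estradiol, against 19.8%. The shares of the 43 genes were above those of all genes in both directions at 0.32, but not at every limit. At 1.5-fold the share lower with estradiol was 6.98%, below the 8.42% of all genes. Counted as single probe sets at 1.5-fold, 22 of 101 were higher with ERα17p, against 10.5% of all 41091 sets, and 18 with estradiol, against 10.4%. Lower were 18 of 101 sets with ERα17p, against 10.1%, and 8 of 101 with estradiol, against 9.99%.

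The comparison of ERα17p with estradiol does not use the vehicle array and asks whether the peptide and the hormone differed at the same molar dose and time. No chaperone gene passed 1.5-fold: 0 of 43 were higher, against 0.521% of all genes, and 0 lower, against 0.607%. The median difference was 0.00, and 40 genes lay within 0.32 on the log2 scale. The exceptions were DNAJB6 and CHORDC1 on the higher side, against 4.67% of all genes, and FKBP4 on the lower side, against 4.01%. At 2-fold 0 were higher, against 0.0607%, and 0 lower, against 0.086%. Of the 101 single sets 0 were at least 1.5-fold higher, against 0.891%, and 1 was lower, against 1.14%, which was a set of FKBP4.

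FKBP4 (chromosome 12, 2794970 to 2805423) encodes FKBP52, the HSP90-bound immunophilin of steroid receptor complexes, and is known as an estrogen-induced gene in breast cancer cells. Its mean values were −0.55 on the ERα17p array, −0.03 on the estradiol array and 0.36 on the vehicle array. The 4 probe sets read −0.63, −0.70, −0.56 and −0.32 with ERα17p, against −0.13, −0.15, 0.03 and 0.10 with estradiol. With vehicle the same sets read 0.33, 0.01, 0.45 and 0.67. Every set was lowest with ERα17p and highest with vehicle.

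The difference between ERα17p and estradiol was −0.52 ± 0.07 (SD, n = 4), or 0.698-fold, with sets from −0.60 to −0.43. This was short of 1.5-fold and was the 182nd lowest of 19775 genes. All 4 sets were below 0 in 9.48% of the 1393 genes with 4 probe sets. Of those 1393 genes, 1 had all 4 sets at or below −0.43, which was FKBP4. That limit is the highest set of FKBP4 itself, taken after its values were seen. FKBP4 met it by construction, so this count does not show that the gene stands apart. Against vehicle FKBP4 was at −0.92 ± 0.14 (SD, n = 4) with ERα17p and at −0.40 ± 0.17 with estradiol. Only 1 FKBP4 set does not end in _x_at or _s_at. On that set the same differences were −0.95 and −0.45, and the difference between ERα17p and estradiol was −0.50.

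DNAJB6, a J-domain protein that suppresses protein aggregation, was 0.34 higher with ERα17p than with estradiol on 1 probe set, with values of 0.22, −0.12 and −0.01 on the ERα17p, estradiol and vehicle arrays. CHORDC1 was 0.33 ± 0.18 (SD, n = 2) higher, with both sets in the same direction. DNAJB1 followed at 0.25 ± 0.04 (SD, n = 2), with its sets 0.22 and 0.27 above the estradiol array. BAG1 was at −0.21 ± 0.06 (SD, n = 3), with all 3 sets below 0. Of the genes past 1.5-fold against vehicle with both agents, ERα17p less estradiol was −0.08 for HSPA4L, −0.06 for HSPH1, 0.19 for DNAJA2, −0.15 for CCT2, 0.06 for CDC37, 0.03 for DNAJB2 and −0.11 for STUB1.

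**Figure D4:**
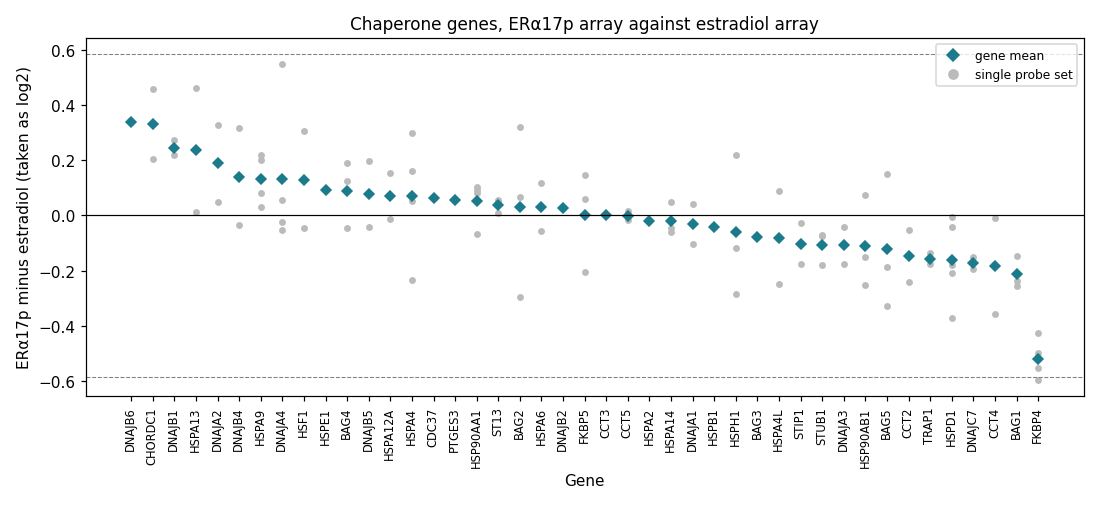
ERα17p minus estradiol (vertical axis, taken as log2) for the 43 measured chaperone genes in order of their mean. Diamonds are gene means, grey points are single probe sets and dashed lines mark 1.5-fold. FKBP4 at −0.52 is the lowest, with its 4 sets between −0.60 and −0.43, and the other means lie between −0.21 and 0.34.

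Other genes of the folding machinery were read from 5 further lists. For each list the shares of all genes to compare are 6.88% higher and 8.76% lower with ERα17p, and 6.48% and 8.42% with estradiol. Prefoldin and the remaining CCT genes had 0 of 9 measured members past 1.5-fold in either direction in any comparison, and their medians were 0.10 with ERα17p and −0.00 with estradiol. VBP1, a prefoldin subunit, had the largest difference, at 0.50 with both agents. Further HSP70 and HSP90 cochaperones had medians of −0.24 and −0.28 over 12 members. Of these, 2 were lower with each agent, the HSP70 exchange factor HSPBP1 at −0.91 and −0.66 and SGTA, which handles tail-anchored proteins, at −0.70 and −0.67, and 1 was higher with estradiol, NUDCD1 at 0.65.

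Further J-domain genes had 2 of 10 members higher with each agent, DNAJB14 at 0.86 and 0.81 and DNAJC19 at 0.59 and 0.71, and 1 lower with ERα17p, DNAJC5 at −0.65. Their medians were −0.00 and 0.12. Further small heat shock genes had 1 of 7 higher with ERα17p, HSPB6 at 0.71, and 0 with estradiol, with medians of −0.04 and 0.18. CRYAB, the lens and muscle protein αB-crystallin, stood at −0.34 and −0.36.

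Chaperones of the endoplasmic reticulum, which fold secreted and membrane proteins, had medians of −0.29 with ERα17p and −0.34 with estradiol over 16 members. In each comparison 4 were lower, against 8.76% of all genes with ERα17p and 8.42% with estradiol, and 2 were higher, against 6.88% and 6.48%. Without the sets ending in _x_at or _s_at, 2 of 12 were lower and 1 higher with each agent. Of all genes that keep a set, 8.04% were lower and 6.45% higher with ERα17p, and 7.88% and 5.99% with estradiol. The HSP70 partner HYOU1 was at −0.75 and −0.71, the lectin chaperone CALR at −0.77 and −0.69, and SDF2L1 at −0.92 and −0.67. HSP90B1, the HSP90 of this compartment, was on the other side at 0.82 and 1.10, as was the J-domain gene DNAJB9 at 0.74 and 0.81. HSPA5, the HSP70 of this compartment, which was named after its values were seen, was at −0.39 and −0.46. In the comparison of ERα17p with estradiol 0 genes of the 5 lists were past 1.5-fold in either direction. Of all genes 0.521% were higher and 0.607% lower there. GRPEL1, an exchange factor of mitochondrial HSP70, was at −0.34 and the small heat shock gene HSPB2 at −0.42.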

How the data were processed

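Expression was measured on 3 Affymetrix HG-U133 Plus 2 arrays, 1 each for ERα17p, estradiol and vehicle, grouped by their labels. The submitters' processing notes name RMA, and the values lie around 0, so they were set relative to some baseline. The scale the authors deposited was assumed to be log2 because RMA gives it, since no source names a log base. The version of RMA and the baseline of the centring could not be found in the sources. Precision is limited by the single array in each group. A further control on the arrays is not reported here.

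Of 54675 probe sets, 62 controls were left out and 41091 had exactly 1 gene symbol in GEO's platform annotation, which can be old. A gene's value was the mean of its probe sets, a difference was taken between these means, and genes were counted at 1.5-fold without a test. The members and lists were chosen with earlier results of these data known. All members could be named, and up to 4 genes of each further list with the largest difference. Classes followed the known roles of the proteins. Alternatives were other thresholds, sets ending in _x_at or _s_at left out, the median of a gene's sets, sets as units, centred differences and means of lists. The computation was tested on simulated data with 200 changed genes. Gene positions and promoters are from RefSeq, GRCh38.p14. Python 3.11.15, numpy 2.4.6, pandas 2.3.3 and matplotlib 3.10.9 were used.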

Additional observations from a re-analysis of the deposited data

How the results depend on the processing

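Counts at 1.5-fold are given with ERα17p and then with estradiol against vehicle, and rest on few genes. Higher genes, 7 and 4 of 43, became 2 and 3 of 30 without the sets ending in _x_at or _s_at, 22 and 18 of 101 with sets as units, 2 and 2 at 2-fold, 14 and 12 at a log2 difference of 0.32, and 2 and 1 of 34 when every set of a gene had to pass, a choice made after seeing the data. Lower genes, 5 and 3, became 3 and 1 of 30, 18 and 8 of 101, 0 and 0, 12 and 10, and 2 and 0 of 34 under the same choices. Between ERα17p and estradiol, 0 higher became 2 at a log2 difference of 0.32, and 0 lower became 1 at a log2 difference of 0.32 and 1 of 101 with sets as units. Centring and the median of a gene's sets left each count within 1.5 times its value, but both ended the STUB1 call with estradiol. The median of sets also ended the calls of HSPH1 (0.50), BAG4 (0.51) and BAG1 (−0.58) with ERα17p and added DNAJC7 (−0.62). The median over the genes for estradiol was −0.0004 with sets as units and 0.03 with the median of sets, against 0.12; for ERα17p it was 0.09 with the median of sets, against 0.16. Without the sets ending in _x_at or _s_at, class medians changed sign against vehicle with ERα17p for HSPB1 and the mitochondrial chaperonin (−0.036, 1 gene left), J-domain genes (−0.17, 7 left) and HSF1 (−0.19), and between ERα17p and estradiol for BAG genes (0.0307, 3 left) and HSF1 (−0.0447). Fewer genes or sets remain there, and no other cause was tested. No paired analysis was possible because each group had 1 array.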
